A study of Homo sapiens and Mus musculus with 29 samples.

Results

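Wnt ligands, their receptors and the genes that feed back on them were followed in HPAF-II, an established human pancreatic adenocarcinoma cell line that carries a mutation of RNF43 and depends on Wnt signals. The 46 genes were listed by symbol for their known roles in the pathway, at a time when earlier results of these data were known, and the 35 with a mean of at least 0.3 RPKM (reads scaled to gene length and library size) over 21 libraries were tested, out of 19900 genes at that level and 58719 in the whole table. The libraries came from HPAF-II cells that had all been given Cas9 and were grown in the pancreas of immunodeficient NSG mice, about 8 weeks old at surgery, which lack lymphocytes but keep stromal and myeloid cells of their own. They were 3 control tumors (Cas9 and an empty vector), 3 tumors labeled FOXA1-OE (Cas9 and lentiviral FOXA1), 4 tumors labeled HNF4G-KO, and 5 tumors from 4 mice labeled HNF4G-KO + FOXA1, in which both changes were combined. There were also 2 metastases from HNF4G-KO mice, both from the peritoneum, and 4 metastases from 3 HNF4G-KO + FOXA1 mice, of which 1 was from the spleen. HNF4G-KO cells were a pool of 3 clones with frameshift mutations. The paper calls these mutations heterozygotic and the clones knockouts. The editing of HNF4G and the choice of clones cannot be told apart in any comparison with control cells, which were not described as cloned. The other 8 libraries of the series, from mouse KPC lines, were not used here.

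In canonical Wnt signaling, a secreted WNT protein binds a Frizzled receptor and its co-receptor LRP5 or LRP6, which stops a complex of AXIN and APC from marking beta-catenin for destruction, and beta-catenin then acts with TCF/LEF factors in the nucleus. RNF43 and ZNRF3 are ubiquitin ligases that remove Frizzled receptors from the cell surface, and R-spondins acting through LGR receptors restrain them. Cells whose RNF43 is mutated keep more receptor at the surface and can depend on the WNT proteins that they secrete, which need the acyltransferase PORCN.

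Every library held tumor cells by their markers, as all 8 epithelial genes listed were above the limit and summed to between 3416 and 6781 RPKM. HNF4G mRNA was higher in tumors labeled HNF4G-KO, at 5.72 to 8.42 RPKM against 2.48 to 3.47 in control tumors, without overlap. Since the clones carry frameshifts, which need not lower an mRNA, the level neither checks nor contradicts the edit. FOXA1 was 6.32 and 8.18 RPKM in FOXA1-OE tumors 1 and 2 but 0.763 in the library labeled FOXA1-OE 3, near the 0.519 to 0.932 of control tumors. It was 4.65 to 23.1 RPKM in the 5 HNF4G-KO + FOXA1 tumors, and 0.535, 17.9, 1.3 and 1.55 in the metastases 1 to 4 labeled the same. FOXA1-OE tumor 3 and HNF4G-KO + FOXA1 tumor 5 also stood apart in LYZ, at 57.4 and 142 RPKM against 467 or more in the other 19 libraries, and were left out together in an added test. Markers of host stroma summed to 99.4, 231 and 234 RPKM in the 3 control tumors and to no more than 89.9 in the 4 HNF4G-KO tumors. Acinar markers of host pancreas were highest in control tumor 2, at 661 RPKM, and blood markers at most 747 RPKM, nearly all of it LYZ. Only 3 of the 10 blood markers reached 0.3 RPKM on average. The reads were aligned to a human genome, and whether LYZ or the stroma markers came from tumor or host cells was not tested. The depth recovered from the smallest steps in the values was 33.1 to 69.6 M reads a library (median 54.5 M), and 0.3 RPKM in a 2 kb gene stood for 19.9 to 41.7 reads. In bulk samples, fewer cells of a type and less RNA per cell cannot be told apart.

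Of 11 ligands, 7 passed the limit, and 3 held most of the ligand mRNA. WNT7B, usually a canonical ligand, had a mean of 19.0 RPKM, WNT10A 11.4 and WNT11, mostly a ligand of beta-catenin-independent signaling, 4.8, a scale on which genes can be compared because it is per length. WNT7B alone took 33.8% to 74.3% of the summed ligand RPKM of a library (median 49.1%) and WNT10A 13.5% to 47.0% (median 30.8%). WNT4, WNT7A, WNT9A and WNT10B lay between 0.395 and 0.765 RPKM, while WNT3, WNT6, WNT5A and WNT5B were below the limit at 0.217, 0.153, 0.105 and 0.0111. Neighboring genes thus differed, as WNT6 (chr2:218859805-218874233) and WNT10A (chr2:218880852-218899581) lie side by side. The levels just above the limit were those of FZD8 (0.354) and WNT4 (0.395), and those just below it of WNT3 (0.217) and DKK3 (0.204).

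Among receptors, LRP5 was the highest of all 46 genes (mean 57.3 RPKM), and exceeded its relative LRP6 by 16.1 to 64.3 times in each library. FZD5 and FZD6, at means of 14.1 and 10.6 RPKM, took 29.7% to 51.0% and 15.4% to 40.8% of the summed Frizzled RPKM, and FZD10 was near 0 at 0.0109. LGR4 was the R-spondin receptor of this list that was expressed, with a mean of 16.6 RPKM against 0.0621 for LGR5, a marker of intestinal stem cells that did not exceed 0.162 in any library. LGR6, an R-spondin receptor outside this list, had a mean of 18.0 RPKM. RNF43 mRNA (mean 8.96 RPKM) exceeded that of ZNRF3 (1.88) by 1.64 to 11 times, and the mRNA level of RNF43 says nothing of whether its protein works. The beta-catenin gene CTNNB1 had a mean of 43.1 RPKM, and the secreted inhibitor DKK1, which binds LRP5 and LRP6, 44.6. TCF7L2 took 79.7% to 91.0% of the RPKM of the TCF/LEF family, whose member LEF1 was below the limit at 0.0664.

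**Figure D1:**
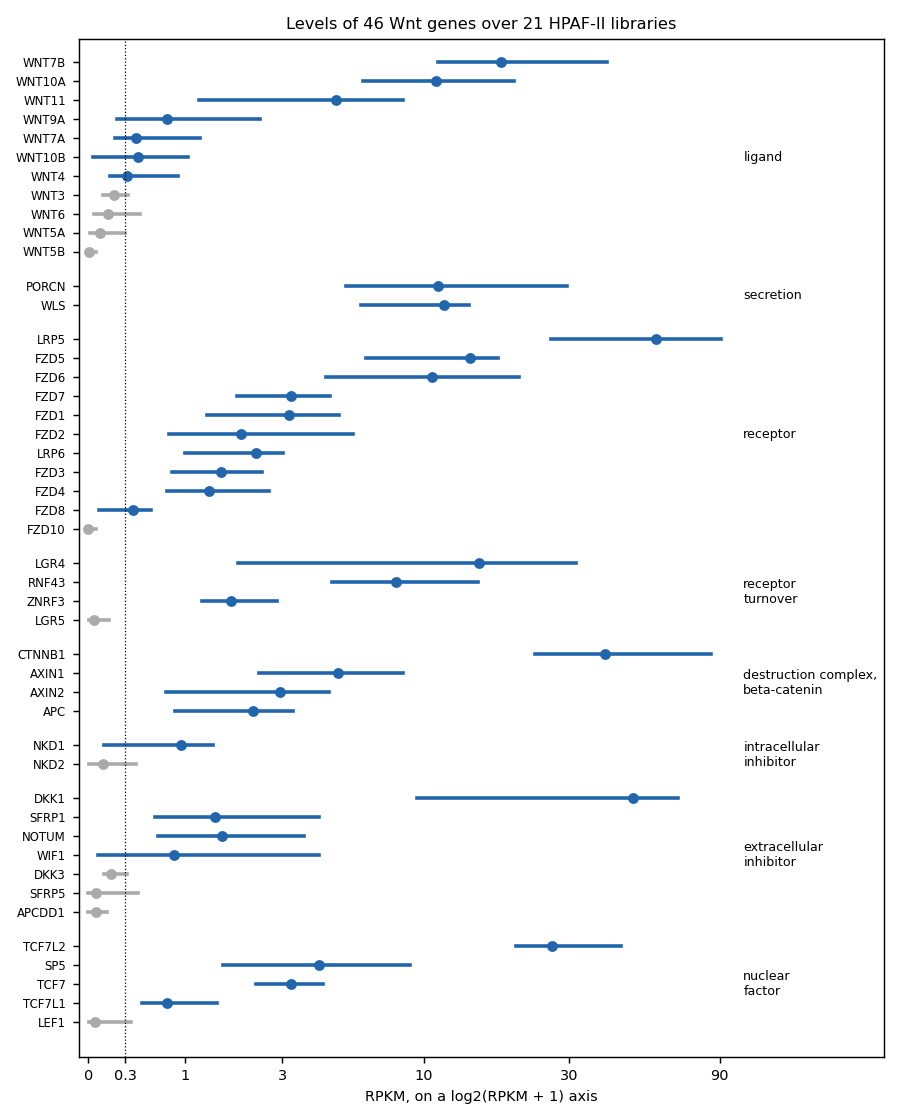
Level of each of the 46 Wnt genes over the 21 HPAF-II libraries, in RPKM on a log2(RPKM + 1) axis, grouped by role. Lines run from the lowest to the highest library, points are medians, the dotted line marks 0.3 RPKM and the 11 genes in gray had a mean below it. LRP5, CTNNB1, DKK1 and TCF7L2 have the highest medians, and WNT10B, WIF1 and LGR4 have wide ranges for their level.

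The plot of levels shows that each of the 8 roles had at least 1 member above the limit.

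The promoter sequences of RefSeq (GRCh38.p14) were matched by symbol, and 30 of the 46 genes had an entry. Over the 250 bases before the start, the TCF/LEF letters CTTTGAT were found on either strand in 2.26% of 35116 promoters and CTTTGAA in 3.8%. SP5, a transcription factor gene that is a direct beta-catenin target in many tissues, was the one member with CTTTGAT, and SP5 and DKK1 had CTTTGAA. The forkhead letters TGTTTAC (2.98% of promoters) were in TCF7 and WNT5B, TGTTTAT (3.77%) in TCF7L2 and WNT5B, and the HNF4 letters CAAAGTCCA (0.325%) in no member. Of these windows, 3 are printed 5′ to 3′ on the strand of the gene. That of SP5 (chr2:170715087-170715336, plus strand) holds 3 of the letter groups, at bases -148 to -142, -109 to -103 and -84 to -78 from the start, which are in capitals. Those of LGR4 (chr11:27472791-27473040, minus strand) and WNT9A (chr1:227947933-227948182, minus strand), whose mRNA rose in the comparison that follows, hold none of the 5 groups in these letters, and 84.4% of the WNT9A window is G or C against a median of 58% over all promoters.
SP5: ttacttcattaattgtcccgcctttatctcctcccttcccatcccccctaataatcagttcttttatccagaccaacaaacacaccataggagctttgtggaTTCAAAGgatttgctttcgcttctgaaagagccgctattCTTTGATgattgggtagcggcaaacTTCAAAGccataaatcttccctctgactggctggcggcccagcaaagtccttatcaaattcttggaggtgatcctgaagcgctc
LGR4: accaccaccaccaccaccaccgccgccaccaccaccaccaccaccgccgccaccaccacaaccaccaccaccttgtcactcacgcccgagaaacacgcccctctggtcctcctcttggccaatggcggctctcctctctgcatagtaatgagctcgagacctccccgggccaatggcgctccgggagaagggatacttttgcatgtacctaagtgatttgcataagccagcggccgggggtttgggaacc
WNT9A: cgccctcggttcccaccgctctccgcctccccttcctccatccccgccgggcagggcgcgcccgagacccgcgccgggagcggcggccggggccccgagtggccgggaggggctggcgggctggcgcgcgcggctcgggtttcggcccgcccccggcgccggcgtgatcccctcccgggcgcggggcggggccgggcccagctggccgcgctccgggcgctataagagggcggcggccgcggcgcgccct

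The comparison of HNF4G-KO with control tumors asked which Wnt genes differed where HNF4G was targeted. The ligands WNT9A, WNT10B and WNT11, the receptor LGR4 and the secreted inhibitor WIF1 rose, and PORCN fell. These were 6 of 35 members, 5 higher and 1 lower, in limma on log2(RPKM + 1) at an adjusted p under 0.05. Of all 19900 genes, 9.33% passed the same test (4.96% higher and 4.37% lower). The 6 include WNT10B, whose place among the members rests on the groups labeled HNF4G-KO. The median difference was 0.08 over the members and -0.00 over all genes on the log2 scale. An unadjusted p under 0.05 was reached by 12 members and by 27.6% of all genes. For 18 of 35 members, and for 41.1% of all genes, HNF4G-KO and control tumors did not share any range of values, so that a lack of overlap was frequent here.

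Coordinates are those of GENCODE release 44 on GRCh38. WNT10B (chr12:48965340-48971735) was at 0.0669, 0.0866 and 0.054 RPKM in control tumors 1 to 3, which is about 6.9 to 9.9 reads, and at 0.612, 0.731, 0.602 and 0.415 in HNF4G-KO tumors 1 to 4, about 69.3 to 112 reads. The groups did not overlap, and the mean over mice was 0.0692 ± 0.0165 RPKM (SD, n = 3) against 0.590 ± 0.131 (n = 4), a ratio of 8.53. The log2 fold change of RPKM + 1, a scale that understates low genes, was 0.57 ± 0.12 (SE; limma adjusted p = 0.0149). WNT10B passed the 0.3 RPKM limit only through the groups labeled HNF4G-KO, so its calls against groups without that label are given as values and are no support for a count of members. The counts of members called here and below still include it. With a mean of at least 1 RPKM as the limit, WNT10B and WNT9A are left out. Then 5 of 28 members passed, 3 higher and 2 lower, where 1761 of 14229 genes did.

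WNT11 (chr11:76186325-76210736) was at 2.94, 3.07 and 2.23 RPKM in control tumors and at 7.66, 7.09, 8.46 and 5.82 in HNF4G-KO tumors, with no overlap. Its mean was 2.64 times that of control tumors and its log2 fold change 1.14 ± 0.25 (limma adjusted p = 0.0170). It made up 5.26% to 8.59% of ligand RPKM in control tumors and 15.5% to 23.2% in HNF4G-KO tumors. WNT9A (chr1:227918656-227947932) went from 0.310, 0.337 and 0.357 RPKM to 0.805, 0.780, 0.814 and 1.3, again without overlap, and HNF4G-KO tumor 4 was well above the other 3. Its log2 fold change was 0.52 ± 0.14 (limma adjusted p = 0.0362), but 0.51 with an adjusted p of 0.0523 once every sample was set to the same median.

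LGR4 (chr11:27365961-27472790) had the largest difference of the members on the log2(RPKM + 1) scale, while the ratio of means was larger for WNT10B and WIF1. It was at 11.8, 7.70 and 6.74 RPKM in control tumors and at 23.9, 30.1, 26.6 and 21.2 in HNF4G-KO tumors. Every HNF4G-KO tumor was above every control tumor, and the log2 fold change was 1.47 ± 0.41 (limma adjusted p = 0.0401). The call was lost with a pseudocount of 0.1 (limma adjusted p = 0.0560) and with no RPKM filter (0.0943). ZNRF3, on which LGR receptors act, was at 2.81, 2.85 and 2.49 RPKM in control tumors and lower in HNF4G-KO tumors, at 1.45, 1.85, 1.64 and 1.81. These groups did not overlap either, but the difference did not pass (log2 fold change -0.47 ± 0.14, limma adjusted p = 0.0565), and it passed at an adjusted p of 0.0255 once every sample had the same median. With that scaling 4 members were higher and 2 lower, WNT9A being lost and ZNRF3 gained. The ratio of LGR4 to ZNRF3 in a library was 2.70 to 4.18 in control tumors and 11.7 to 16.5 in HNF4G-KO tumors.

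WIF1 (chr12:65050626-65121305), which binds WNT proteins outside the cell, was at 1.89, 0.842 and 0.0685 RPKM in control tumors and at 2.44, 4.21, 2.74 and 2.82 in HNF4G-KO tumors. The groups did not overlap, although the control tumors were spread widely, and the log2 fold change was 1.16 ± 0.28 (limma adjusted p = 0.0223). PORCN (chrX:48508959-48520814) fell from 19.0, 19.5 and 22 RPKM to 9.67, 10.4, 12.8 and 13.7, without overlap. Its log2 fold change was -0.76 ± 0.22 (limma adjusted p = 0.0461) and its mean 0.575 times that of control tumors. With no RPKM filter, the calls of WIF1 (limma adjusted p = 0.0538), PORCN (0.0885) and WNT9A (0.0866) were lost, as that of LGR4 was. With every tumor entered separately, WIF1 (0.0508), PORCN (0.0579) and WNT9A (0.129) did not pass either.

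The other genes of the feedback loop did not pass. RNF43 was at 5.58, 4.69 and 6 RPKM in control and at 9.58, 7.67, 7.60 and 8.68 in HNF4G-KO tumors (log2 fold change 0.55, limma adjusted p = 0.0943). AXIN2, a general target gene of beta-catenin, was at 2.36, 1.77 and 2.21 against 3.32, 2.92, 3.62 and 4.28 (0.54, limma adjusted p = 0.172). CTNNB1 was at 51.4, 52.2 and 60.0 against 35.8, 45.4, 45.5 and 39.0 (-0.39, limma adjusted p = 0.226). These 3 genes did not overlap between the groups, as was so for 41.1% of all genes. NKD1, an inhibitor that acts on Dishevelled, did overlap, at 0.788 to 1.07 RPKM against 0.510 to 1.10 (-0.07, limma adjusted p = 0.770). LGR5 was below the limit and was not tested.

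For single genes, the two-sided exact permutation test over 3 and 4 mice cannot go below p = 0.057, which all 6 called members reached. Every gene whose groups do not overlap reaches it. The calls depended on the mice: with 1 mouse left out, between 0 and 3 members and 311 to 1173 of all genes passed. No member passed without control tumor 2 or without control tumor 3. The direction of each of the 6 held in all 7 such fits, as it must where groups do not overlap. WNT11 passed in 4 of these 7 fits, WIF1 in 2, and WNT9A, LGR4 and PORCN in 0. WNT10B passed in 5 of them (limma adjusted p 0.0244 to 0.0645). As it reached the 0.3 RPKM limit only through the groups labeled HNF4G-KO, its fits are no support. With only these 2 groups in the fit 15 members and 30.9% of all genes passed. With the level of the host stroma markers as a covariate 9 members passed, among them all 6, and 16.7% of all genes.

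The plot of called genes by library shows that PORCN and CTNNB1 were lower in each of the 15 libraries with an HNF4G-KO label than in any of the 6 without it, as were 1.68% of all genes. WNT10B was higher in all 15, as were 1.33% of all genes, but reached the limit only through them. In either direction 3.01% of all genes separated in this way. PORCN was 5.30 to 13.7 RPKM in the 15 libraries with the label and 15.4 to 29.4 in the 6 without, and CTNNB1 was 23.3 to 45.5 against 48.2 to 84.5. The 15 libraries include several from the same mouse and both kinds of tissue, and the label was also the pool of clones.

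HNF4G-KO + FOXA1 tumors were compared with control tumors and with FOXA1-OE tumors. Against control, 5 members passed where 3.7% of all genes did: WNT9A, WNT10B and RNF43 were higher (1.79% of all genes) and PORCN and ZNRF3 lower (1.9%). Against FOXA1-OE, 4 members passed where 6.77% of all genes did: WNT10B was higher (2.96% of all genes) and PORCN, FZD2 and CTNNB1 were lower (3.8%). Both counts include WNT10B. With a mean of at least 1 RPKM as the limit, which leaves it out, 3 of 28 members passed in each comparison. Of 14229 genes, 674 passed against control and 1113 against FOXA1-OE in these fits. All these comparisons share samples with each other or with the one before, so their values are given side by side.

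WNT10B was at 0.981, 0.245, 1.04, 0.388 and 0.461 RPKM in HNF4G-KO + FOXA1 tumors 1 to 5, of which tumors 2 and 3 grew in the same mouse, and at 0.0347, 0.0595 and 0.0385 in FOXA1-OE tumors. Its log2 fold change was 0.57 ± 0.12 against control (limma adjusted p = 0.0205) and 0.61 ± 0.12 against FOXA1-OE (0.00938). Tumors 2 and 3 of the same mouse were the lowest and the highest of the group.

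PORCN was at 11.3, 7.06, 7.50, 12.2 and 11.1 RPKM in these tumors and at 29.4, 15.4 and 23.9 in FOXA1-OE tumors. All 5 were below every control and every FOXA1-OE tumor, with log2 fold changes of -0.90 ± 0.22 (limma adjusted p = 0.0383) and -1.03 ± 0.22 (0.0130). WNT9A was at 1.01, 0.681, 2.41, 0.827 and 0.702 RPKM, all above the 3 control tumors, with a log2 fold change of 0.56 ± 0.14 against control (limma adjusted p = 0.0442). Tumor 3 stood far above its neighbor from the same mouse.

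RNF43 was at 14.7, 8.30, 7.61, 7.62 and 10.9 RPKM, above every control tumor, and rose by 0.78 ± 0.20 on the log2 scale (limma adjusted p = 0.0469). Tumor 1 was the highest, and the metastases 1 and 2 of the same mouse were as high, at 14.1 and 15.2. Without that mouse the RNF43 call was lost (limma adjusted p = 0.0951). ZNRF3 was at 1.34, 1.45, 1.49, 1.87 and 1.25, below every control tumor (-0.59 ± 0.14, limma adjusted p = 0.0397). The ratio of RNF43 to ZNRF3 was 4.08 to 11 in these tumors, 4.15 to 6.61 in HNF4G-KO tumors, 1.64 to 2.41 in control tumors and 2.30 to 4.69 in FOXA1-OE tumors.

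FZD2, a receptor often found on mesenchymal cells, was at 1.23, 1.25, 1.86, 2.52 and 2.24 RPKM against 4.03, 3.71 and 3.93 in FOXA1-OE tumors, without overlap (-0.79 ± 0.19, limma adjusted p = 0.0242). CTNNB1 was at 45.3, 31.2, 32.6, 44.8 and 33.7 against 72.9, 48.2 and 84.5 (-0.78 ± 0.20, limma adjusted p = 0.0343). The library labeled FOXA1-OE 3, whose FOXA1 was at the control level, was the highest in CTNNB1, and without it and tumor 5 the difference was -0.55 with an adjusted p of 0.134. The FZD2 call held without these 2 tumors (limma adjusted p = 0.0429) but was lost in 4 of 7 fits with 1 mouse left out, namely without HNF4G-KO + FOXA1 tumor 1 (0.0630), without the mouse of tumors 2 and 3 (0.0590), without FOXA1-OE tumor 1 (0.0832) and without FOXA1-OE tumor 3 (0.0510). LGR4 was higher in HNF4G-KO + FOXA1 than in FOXA1-OE tumors, at 15.7, 26.6, 13.5, 15.3 and 7.14 against 8.03, 10.4 and 1.91 RPKM, but overlapped and did not pass (1.12 ± 0.41, limma adjusted p = 0.121).

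These calls also depended on single mice, control mice included. Against control, 0 to 4 members and 138 to 759 of all 19900 genes passed with 1 mouse left out. It was 0 members without any 1 of the 3 control tumors. Against FOXA1-OE, 1 to 6 members and 703 to 1613 genes passed. Without FOXA1-OE tumor 1 the 1 member left was WNT10B, which reached the limit only through the groups labeled HNF4G-KO. With the 2 tumors of low LYZ left out, 6 members passed in each comparison, where 6.38% and 6.96% of all genes did, and the RNF43 call against control was lost (limma adjusted p = 0.0552). In fits of only the groups compared, none passed in either.

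FOXA1-OE against control asked about FOXA1 where HNF4G was not targeted, and 0 of 35 members and 0% of all genes passed (1 member and 5.13% of all genes had an unadjusted p under 0.05). WNT11 was at 7.84, 5.34 and 4.94 RPKM in FOXA1-OE tumors, all above the 2.23 to 3.07 of control tumors (log2 fold change 0.90 ± 0.27, limma adjusted p = 0.840, exact permutation p = 0.1, the smallest possible). DKK1 was at 56.3, 36.3 and 9.48 against 45.6, 56.9 and 47.9 (-0.85, limma adjusted p = 0.840), and its low value was in the library labeled FOXA1-OE 3. That library was also the lowest of all 21 in LRP5, LGR4, FZD5, FZD8, AXIN1, AXIN2, APC, DKK1, WNT9A and SP5. It was the lowest in HNF4G too, at 0.495 RPKM. The share of all genes that were lowest there was not counted, so the list shows nothing particular to Wnt genes.

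HNF4G-KO + FOXA1 against HNF4G-KO asked about FOXA1 where HNF4G was targeted. No member passed, while 0.106% of all genes did, 8 members and 18% of all genes had an unadjusted p under 0.05, and the median difference of the members was -0.24 on the log2 scale against -0.02 for all genes. LGR4 and FZD6, a receptor linked mostly to planar cell polarity, had the largest differences, at -0.86 ± 0.38 (limma adjusted p = 0.263) and -0.81 ± 0.28 (0.227). FZD6 was at 14, 20.7, 17.5 and 12.1 RPKM in HNF4G-KO tumors and at 11.2, 10.6, 10.3, 9.93 and 4.47 in HNF4G-KO + FOXA1 tumors, without overlap (exact permutation p = 0.0286, the smallest possible). The test of whether FOXA1 acted differently with and without HNF4G also passed for no member, against 0.0352% of all genes, and an unadjusted p under 0.05 was reached by 2 members and 9.02% of all genes. WNT11 had the largest value there, -1.55 ± 0.35 (limma adjusted p = 0.262), being higher in FOXA1-OE than in control tumors and, at 4.06, 3.14, 1.55, 4.68 and 6.82 RPKM, mostly lower in HNF4G-KO + FOXA1 than in HNF4G-KO tumors. NOTUM, a secreted enzyme that inactivates WNT proteins, came next (-0.67 ± 0.27, limma adjusted p = 0.492). It was at 1.60, 1.33 and 2.48 RPKM in control, 3.66, 2.84 and 1.88 in FOXA1-OE, 2.02, 2.09, 2.14 and 2.29 in HNF4G-KO, and 2.22, 1.1, 1.2, 1.42 and 1.94 in HNF4G-KO + FOXA1 tumors, groups that overlap in part.

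**Figure D2:**
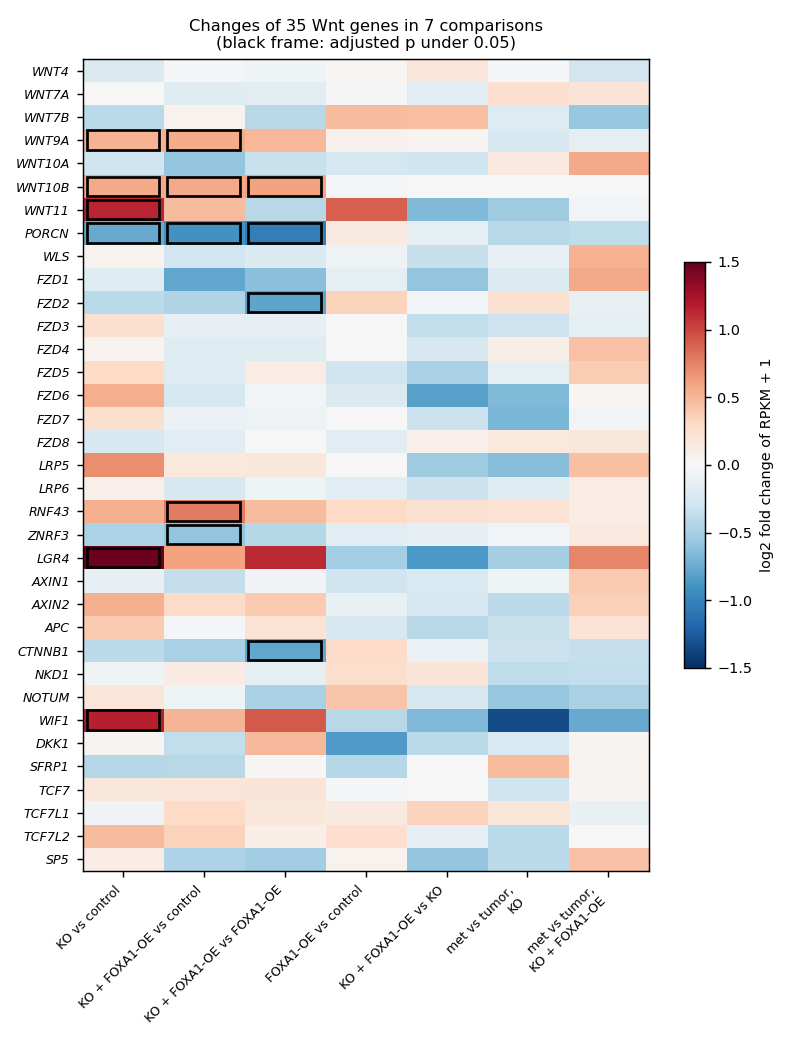
Log2 fold change of RPKM + 1 for the 35 tested Wnt genes (rows, by role) in 7 comparisons (columns; KO, HNF4G-KO; met, metastasis), from blue (lower) to red (higher), with black frames where the limma adjusted p was under 0.05. The frames number 6, 5 and 4 in the first 3 columns and 0 in the other 4.

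In the map of fold changes, the first 3 columns set tumors with an HNF4G-KO label against tumors without it. The other 4 columns, in which both sides had or both sides lacked the label, hold no call. Of all genes, 9.33%, 3.7% and 6.77% passed in the first 3 columns and 0%, 0.106%, 0% and 0.0151% in the other 4. The lack of a call there was thus shared by nearly all genes.

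Metastases were compared with tumors within each genotype, without pairing by mouse except where stated. In HNF4G-KO + FOXA1 mice, no member passed (0.0151% of all genes did, and 6 members and 8.99% of all genes had an unadjusted p under 0.05), and in HNF4G-KO mice no member and 0% of genes passed (5 members and 13% of all genes had an unadjusted p under 0.05). WIF1 had the largest difference in both. It was at 0.882 and 0.330 RPKM in HNF4G-KO metastases 1 and 2, below all 4 HNF4G-KO tumors, with a log2 fold change of -1.34 ± 0.24 (limma adjusted p = 0.146). When tumor and metastasis of the same mouse were blocked, the difference was -1.39 (limma adjusted p = 0.0428). WIF1 was the one member called in that fit, in which 34 of 19900 genes passed. In HNF4G-KO + FOXA1 metastases 1 to 4 it was at 0.0830, 0.364, 0.637 and 0.709, and the difference was -0.75 ± 0.21 (limma adjusted p = 0.452). Next came FZD7 in HNF4G-KO mice, at 2.43 and 1.89 RPKM in metastases against 3.86, 3.94, 4.15 and 4.22 in tumors (-0.68 ± 0.21, limma adjusted p = 0.275). In HNF4G-KO + FOXA1 mice it was LGR4, at 12.3, 14.6, 28.7 and 31.6 in metastases 1 to 4 (0.73 ± 0.32, limma adjusted p = 0.547), which overlapped with the tumors.

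In 4 mice a tumor and a metastasis were both sequenced, 2 of each genotype. In all 4, the metastasis was below its own tumor for 10 of 35 members (28.6%), namely WNT9A, PORCN, FZD3, FZD6, FZD7, CTNNB1, NKD1, NOTUM, WIF1 and TCF7L2, and it was above for 0 members. Over all genes these shares were 13.7% and 6.5%. For WIF1 the pairs went from 4.21 to 0.882, from 2.82 to 0.330, from 2.42 to 0.0830 and 0.364, and from 1.18 to 0.709 RPKM, and for PORCN the 4 differences lay between -0.82 and -0.42 on the log2 scale. Host stroma markers were higher in the metastasis than in the tumor in all 4 mice (89.6 against 65.5, 487 against 78.5, 129 and 91.0 against 65.7, and 241 against 141 RPKM), and their part in the result was not tested.

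**Figure D3:**
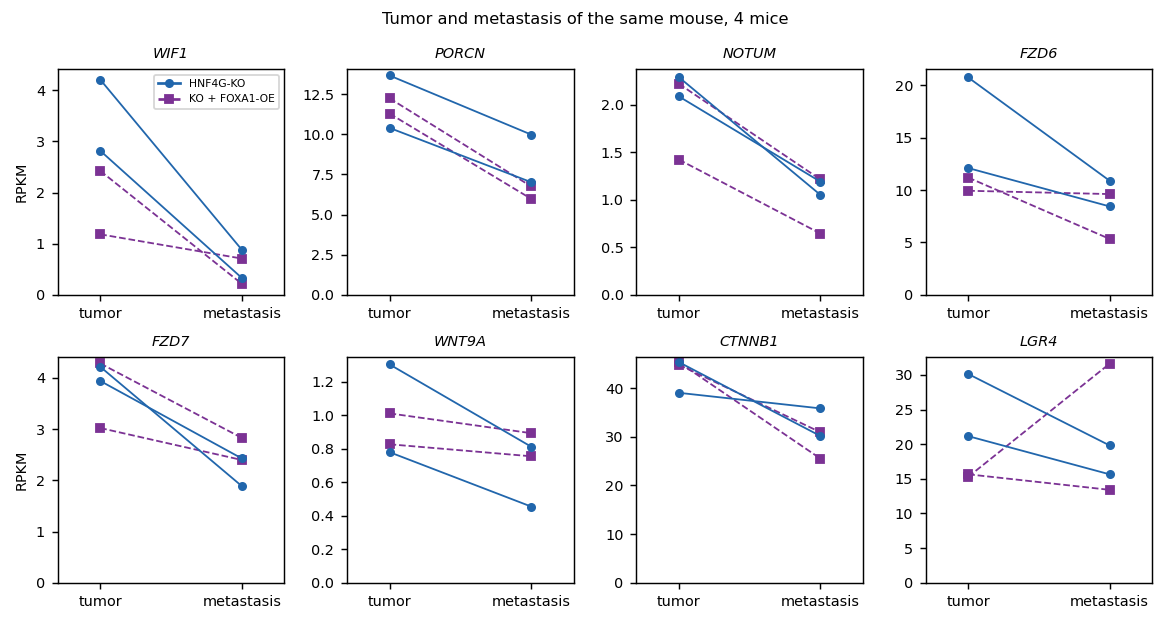
RPKM of 8 Wnt genes in the tumor and the metastasis of the same mouse (2 HNF4G-KO mice, circles and solid lines; 2 HNF4G-KO + FOXA1 mice, squares and dashed lines). For all but LGR4 every line goes down, and for WIF1 it goes from 1.18 or more in tumors to 0.882 or less in metastases.

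The plot of tumor and metastasis pairs shows that LGR4, unlike the other 7 genes, was higher in the metastasis of 1 mouse and lower in 3.

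The library with the highest sum of host stroma markers was also the highest in 3 members. HNF4G-KO metastasis 2 had the highest sum of the 14 stroma markers, 487 RPKM against a median of 99.4 over the 21 libraries, and also the highest SFRP1 (4.20 RPKM, a secreted inhibitor), FZD2 (5.63) and WNT7A (1.22). SFRP1 was next highest in control tumor 1 (3.77), whose stroma sum was 234, and in HNF4G-KO + FOXA1 tumor 3 (3.60), whose sum was 137. Control tumor 2 (sum 231) came after these, at 2.80 RPKM. In other libraries with a high sum SFRP1 was lower, at 1.57 RPKM in HNF4G-KO + FOXA1 metastasis 3 (sum 247) and 1.95 in metastasis 4 (sum 241). It was 1.47 in FOXA1-OE tumor 2 (sum 189). FZD2 was 1.57 in the same metastasis 3 and 2.07 in metastasis 4, but 3.23 and 3.64 in control tumors 1 and 2. WNT7A was 0.573 in metastasis 3 and 0.367 in metastasis 4. Its next highest value, 0.662, was in HNF4G-KO + FOXA1 metastasis 2, whose sum was 91.0. Of the 14 markers 10 reached 0.3 RPKM on average and 3 stayed below 0.1. The part of host reads in the levels of these 3 genes was not tested. When HNF4G-KO metastasis 1 was left out, SFRP1, FZD2 and WIF1 passed in the comparison with HNF4G-KO tumors, which then rested on metastasis 2 alone, assumed to vary like the other groups, and 2.87% of all genes passed in that fit.

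**Figure D4:**
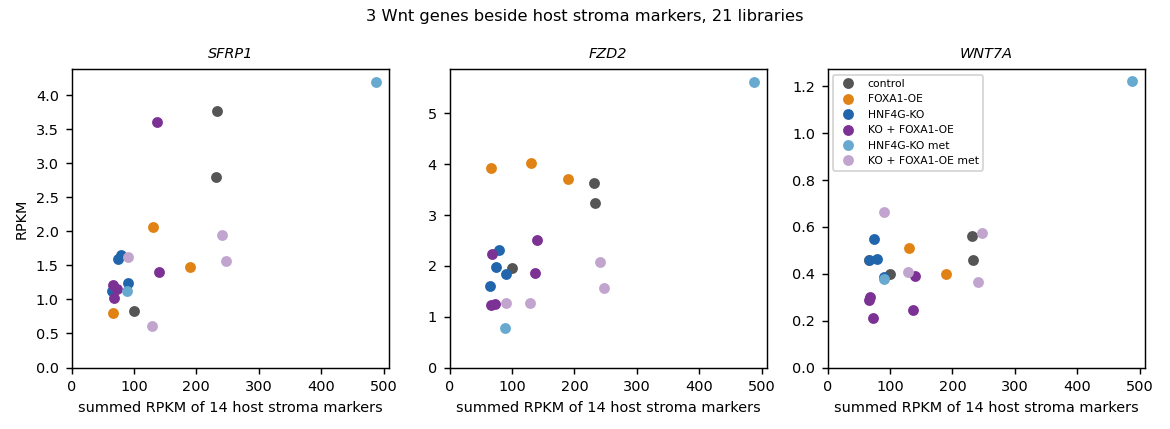
RPKM of SFRP1, FZD2 and WNT7A (vertical axes) against the summed RPKM of 14 host stroma marker genes (horizontal axis) in the 21 libraries, colored by group (KO, HNF4G-KO; met, metastasis). The point at the far right, HNF4G-KO metastasis 2, is the highest in all 3 panels, while the FOXA1-OE tumors lie between 3.71 and 4.03 RPKM of FZD2 at sums from 66.3 to 189.

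The plot against stroma markers shows 1 library far from the other 20 on the horizontal axis, which all lie at or below 247 RPKM.

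Another 90 genes of the pathway were listed, among them R-spondins, Dishevelled and kinase genes, and 59 reached the limit. In HNF4G-KO against control tumors 5 of the 59 passed (9.33% of all genes did). The co-receptor PTK7 rose from 1.17, 0.827 and 0.631 to 3.39, 3.60, 3.37 and 3.31 RPKM (log2 fold change 1.24, limma adjusted p = 0.000734), the co-repressor TLE4 by 0.73, the tankyrase TNKS2, which marks AXIN for destruction, by 1.13, and the R-spondin receptor LGR6 by 0.79 on the log2 scale. CTNNBIP1, an inhibitor that binds beta-catenin, fell from 18.6, 19.6 and 21.5 to 14.7, 12.8, 12.1 and 13.3 RPKM (-0.55, limma adjusted p = 0.0328). CTNNBIP1 was also lower in HNF4G-KO + FOXA1 tumors, at 7.54 to 13.1 RPKM, than in control (-0.69) and FOXA1-OE tumors (-0.85), and PTK7 was higher than in FOXA1-OE tumors (0.76). These made 1 of 59 genes against control, where 3.7% of all genes passed, and 2 of 59 against FOXA1-OE, where 6.77% did, and in the other 5 comparisons 0 of 59 passed.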

How the data were processed

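RNA-seq of 21 HPAF-II libraries was used. The authors deposited a table of RPKM per gene. Their processing notes name STAR 2.6.1a, featureCounts 2.0.4 and GRCh38, while their methods name GRCh37, so coordinates here are those of GENCODE 44 on GRCh38. The table held 0 columns of other samples. The mouse KPC table was not used.

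Values were taken as log2(RPKM + 1), with 1 mean value for each mouse among tumors and 1 among metastases. The 19900 genes whose mean reached 0.3 RPKM were fitted with limma 3.58.1 (trend, R 4.3.3). There was 1 fit for the 4 tumor groups and 1 for the tumors and metastases of HNF4G-KO and HNF4G-KO + FOXA1 mice together. P-values were Benjamini-Hochberg adjusted over all these genes, with 0.05 as the threshold. Single genes had two-sided exact permutation tests over mice (scipy 1.17.1).

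The members and lists were chosen with earlier results of these data known. Genes named in full were those called in any comparison, the 2 members of largest change in each, RNF43, ZNRF3, LGR5, AXIN2, NKD1, CTNNB1, HNF4G and FOXA1, and up to 5 called genes of the other pathway list. SFRP1 and WNT7A were named after their values were seen. Tumor and metastasis pair by mouse (correlations of deviations -0.07 to 0.30 over 4 pairs). The alternatives were another pseudocount, filter, scaling, choice of samples, block, a stroma covariate and each mouse left out, and the removal of 2 tumors of low LYZ was added after seeing the data.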

Additional observations from a re-analysis of the deposited data

Results flagged for a closer look

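WNT9A in HNF4G-KO tumor 4 stood far from the other 3 HNF4G-KO tumors, at 1.3 RPKM against 0.780 to 0.814. It was the 1 case among 34 groups of 4 mice examined, over 17 named members, and chance gives such a case in about 1 of 20 groups. Without that tumor the log2 fold change of WNT9A against control was 0.43 (limma adjusted p = 0.101).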

How the results depend on the processing

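Of 489 alternative values for 31 pairs of a named member and a comparison, 372 kept their direction and their side of the threshold, 104 kept the direction but no longer passed, 12 newly passed and 1 turned. The one that turned was NKD1 in HNF4G-KO against control, which lay between -0.13 and 0.026 with 1 mouse left out. The number of members called, 6 in HNF4G-KO against control, was 3 with a log2 fold change of at least 1, 2 with no RPKM filter, 15 with only the groups compared, 3 with every tumor separate, and 0 to 3 with 1 mouse left out. In HNF4G-KO + FOXA1 against control it was 5, and 0 with a log2 fold change of at least 1, 3 with a mean of at least 1 RPKM, 1 with no filter, 0 with only the groups compared, 3 with every tumor separate, 1 with the stroma covariate, 2 without the mouse of tumors 2 and 3, and 0 to 4 with 1 mouse left out. Against FOXA1-OE it was 4, and 1, 0 and 8 with the fold change limit, only the groups compared and the stroma covariate, 2 without the mouse of tumors 2 and 3, and 1 to 6 with 1 mouse left out. Metastases against tumors in HNF4G-KO mice had 0, and 0 to 3 with 1 mouse left out. In all other comparisons it stayed 0 in every alternative run. The cause of these differences was not tested.

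Over all genes, the count for HNF4G-KO against control went from 1857 to 6150 with only the groups compared, 3330 with the stroma covariate, 1197 with no filter, 609 with the fold change limit, and 311 to 1173 with 1 mouse left out. For HNF4G-KO + FOXA1 against control it went from 736 to 0 with only the groups compared and 317 with the fold change limit. It was 573 with the stroma covariate, 1270 without the 2 tumors of low LYZ, and 138 to 759 with 1 mouse left out. Against FOXA1-OE it went from 1347 to 35 with only the groups compared and 505 with the fold change limit. It was 1921 with the stroma covariate and 703 to 1613 with 1 mouse left out. For HNF4G-KO + FOXA1 against HNF4G-KO it went from 21 to between 0 and 196.

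The replicate numbers of tumors did not pair them (correlations of deviations -0.25 to 0.60 over 16 pairs). With the number as a replicate block 6 members passed in HNF4G-KO against control, now 4 higher and 2 lower and without WNT9A (limma adjusted p = 0.057), 1 in HNF4G-KO + FOXA1 against control (307 genes) and 3 against FOXA1-OE. With the mouse as a block 1 member, WIF1, passed between metastases and tumors of HNF4G-KO mice, where 34 of 19900 genes did. The mouse block called no other member. With 2 to 4 mice a group and a few reads for genes such as WNT10B in control tumors, small differences were not detectable.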
